A study of Mus musculus with 8 samples.

Results

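The genes described here are the 10 that encode the TGF-beta ligands (Tgfb1, Tgfb2, Tgfb3), their receptors (Tgfbr1, Tgfbr2, Tgfbr3) and the latent TGF-beta binding proteins (Ltbp1, Ltbp2, Ltbp3, Ltbp4). They were chosen by symbol: every array probe that the platform annotation assigns to these genes was taken, which gave 23 of 25697 probes and all 10 genes of 16593 genes with a named probe. Expression was measured in hypothalamus (n = 4) and liver (n = 4) of male mice lacking fibromodulin (Fmod knockout, C57BL/6 strain background) at 13 weeks of age, fed a standard rodent diet. All 8 arrays therefore carry the Fmod deletion, and wild-type mice were not analysed here. The only contrast between groups is that of hypothalamus against liver, and it says nothing of what the deletion does. Each tissue sample was total RNA on its own single-colour Illumina bead array, and nothing in the labels ties a replicate number to a mouse, so p-values reflect only how far these arrays scatter.

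TGF-beta is secreted as a precursor that furin cuts, and its propeptide stays wrapped around the mature growth factor and keeps it latent. The latent complex is joined to a latent TGF-beta binding protein, which anchors it to fibrillin microfibrils of the extracellular matrix, and integrins or proteases later release the active ligand. The ligand then binds the type II receptor (Tgfbr2), which phosphorylates the type I receptor (Tgfbr1), and this kinase activates SMAD2 and SMAD3. Betaglycan (Tgfbr3) is a co-receptor that presents the ligand, and fibromodulin is itself among the small matrix proteoglycans known to bind TGF-beta. In liver this pathway is known for the activation of stellate cells, and in brain for the maintenance of microglia and vessels.

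Fmod, the targeted gene, was read by 2 probes, detected on 1 and 0 of the 8 arrays. Without the position of these probes relative to the deletion and without wild-type arrays, this does not check the genotype. The deposited intensity had array medians of 142.4 to 169.1 in hypothalamus, against 138.2 to 156.8 in liver. Probes with a detection p under 0.05 numbered 13285 to 13753 per array in hypothalamus and 10307 to 10828 in liver. Tissue markers followed the labels: 3 of 4 neuron markers were tested, each higher in hypothalamus, with summed intensities of 26820 to 33380 in hypothalamus and 527 to 623 in liver. The neuron marker Snap25 was detected on no array. All 5 hepatocyte markers were higher in liver. Without Ttr, a gene also known from choroid plexus, they summed to 498.6 to 623 in hypothalamus and 92960 to 110100 in liver, while Ttr itself ranged between 188.9 and 15700 in hypothalamus.

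A probe passed the detection filter for 9 of the 10 genes, for Ltbp1 at the limit of detection, and most of the extra probes of these genes read background. Of the 23 probes, 11 were detected on at least 4 of the 8 arrays and were tested, and 12 were not tested. Of these 23, 7 were detected on all 8 arrays and 8 on none. Tgfb1, Tgfbr1, Tgfbr2, Tgfbr3, Ltbp3 and Ltbp4 each had a probe detected on all 8 arrays. Tgfb2, Tgfb3 and the dimmer Ltbp3 probe ILMN_2608746 passed only because all 4 hypothalamus arrays detected them, so that they could hardly have been found higher in liver. Ltbp1 passed on exactly 4 arrays, and Ltbp2 on none.

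**Figure D1:**
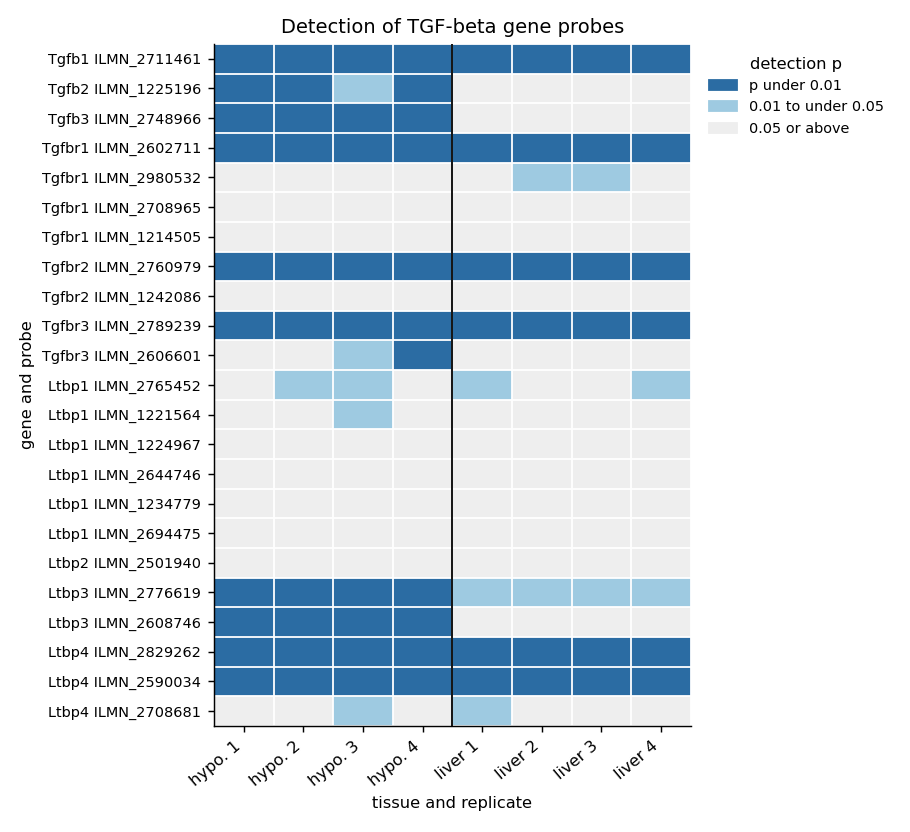
Detection p of the 23 probes (rows) on the 4 hypothalamus and 4 liver arrays (columns), with dark squares under 0.01 and light blue squares from 0.01 to under 0.05. Of the 23 probes, 7 are detected on all 8 arrays, while Tgfb2, Tgfb3 and Ltbp3 probe ILMN_2608746 are detected on the 4 hypothalamus arrays and on 0 liver arrays.

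Values were compared as log2 intensities after background correction and joint quantile normalization of the 8 arrays. A gene was called where limma's adjusted p over all tested probes was under 0.05, and each gene was represented by its brightest probe. By that measure 3 of the 9 tested genes were higher in hypothalamus (Ltbp3, Tgfb3 and Tgfb2), 5 were higher in liver (Tgfb1, Ltbp4, Ltbp1, Tgfbr3 and Tgfbr1) and Tgfbr2 was not called. Tissue differences were the rule on these arrays: 80.4% of all 9456 tested genes were called, with 43.1% higher in hypothalamus, against 37.3% that were higher in liver. A count of 8 called genes out of 9 is therefore near the background. Likewise, the normalized values of the tissues did not overlap on 8 of the 11 tested probes of these genes, against 74.4% of all tested probes. The median difference of the 9 genes was −0.36 on the log2 scale, against 0.11 for all tested genes, and their median absolute difference was 0.68, against 1.13 for all tested genes. Only 2 of the 9, Ltbp3 and Tgfb1, differed by more than 2-fold in limma's treat test, which called 42.6% of all tested genes.

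The direction and call of some of these genes depend on the way the arrays are scaled. Under 6 scalings, the tested probes of Tgfb2, Tgfb3 and Ltbp3 were higher in hypothalamus each time. That of Tgfb1 was higher in liver each time, and all of these probes were called each time. For Tgfb2, Tgfb3 and Ltbp3 probe ILMN_2608746 the detection filter had all but fixed the direction beforehand, so its constancy says little. The tested probes of Tgfbr1, Tgfbr3, Ltbp1 and Ltbp4 changed sign between scalings, and Tgfbr2 was called in some of them. Over all 13498 tested probes, the median difference stood at 0.07 in the joint normalization but 0.49 with median scaling, 0.39 in the authors' normalized table and 0.91 with each tissue normalized on its own. Of all called probes, 52.5% were higher in hypothalamus in the joint normalization, against 65.6%, 71.4% and 75.9% in those scalings. Set against that median, each probe kept its side in all 6 scalings: Tgfbr1, Tgfbr3, Ltbp1, Ltbp4 and Tgfb1 lay below it, and Tgfb2, Tgfb3, Tgfbr2 and Ltbp3 above it. For Tgfbr2 that side did not hold under other alternatives. Relative to the median it stood at −0.01 where a detection p under 0.01 was required on 4 arrays. Dropping single arrays moved it between −0.03 (liver replicate 4 dropped) and 0.14 (liver replicate 1 dropped). In bulk tissue, fewer cells of a type and less RNA per cell cannot be told apart.

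**Figure D2:**
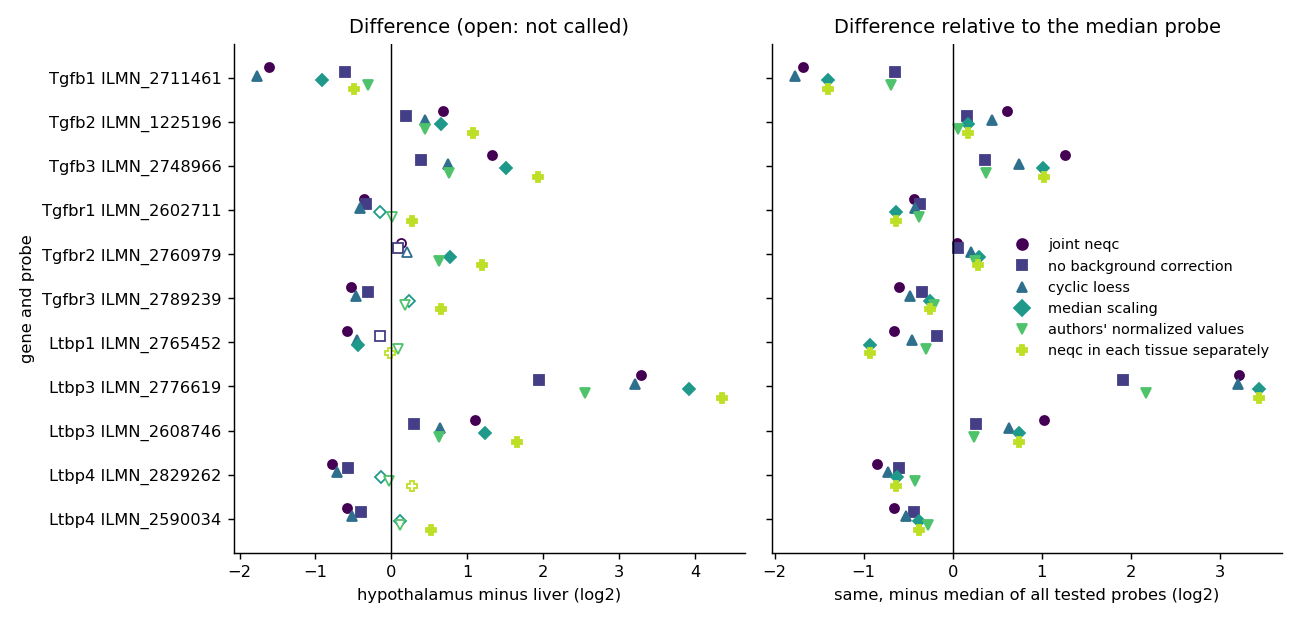
Difference between hypothalamus and liver (log2) of the 11 tested probes under 6 scalings, as fitted (left, open symbols not called) and minus the median of all tested probes (right). Tgfb1 stays left of 0 and Tgfb2, Tgfb3 and both Ltbp3 probes stay right of 0 in both panels, while Tgfbr1, Tgfbr3, Ltbp1 and Ltbp4 straddle 0 on the left and lie below it on the right.

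Promoter sequences are shown for the 3 genes with a direction and call kept in all 6 scalings that the RefSeq promoter table lists, because they moved in opposite directions: Ltbp3 and Tgfb2 were higher in hypothalamus and Tgfb1 was higher in liver. For Tgfb2 the detection filter had all but fixed that direction. Each window spans 250 bases before to 50 bases after the annotated start in GRCm38.p6, written 5′ to 3′ on the gene's strand. Capitals mark matches, on either strand, to the GC box GGGCGG, the TATA box TATAAA, the CCAAT box CCAAT, the AP-1 site TGACTCA, the cAMP response element TGACGTCA and the SMAD element GTCTAGAC.
Ltbp3, chr19:5740650-5740949, plus strand: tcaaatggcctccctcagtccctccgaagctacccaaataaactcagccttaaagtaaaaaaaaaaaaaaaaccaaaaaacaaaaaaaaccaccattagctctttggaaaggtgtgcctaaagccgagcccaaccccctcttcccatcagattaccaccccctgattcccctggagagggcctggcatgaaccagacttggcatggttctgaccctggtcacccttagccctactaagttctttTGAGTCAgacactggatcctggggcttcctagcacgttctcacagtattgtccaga
Tgfb2, chr1:186705940-186706239, minus strand: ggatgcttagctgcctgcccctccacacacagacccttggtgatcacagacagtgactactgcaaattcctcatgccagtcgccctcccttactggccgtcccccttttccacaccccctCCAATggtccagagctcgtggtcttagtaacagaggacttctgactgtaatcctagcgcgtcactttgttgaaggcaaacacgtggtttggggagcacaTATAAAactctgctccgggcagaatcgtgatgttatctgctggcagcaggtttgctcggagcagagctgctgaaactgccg
Tgfb1, chr7:25686752-25687051, plus strand: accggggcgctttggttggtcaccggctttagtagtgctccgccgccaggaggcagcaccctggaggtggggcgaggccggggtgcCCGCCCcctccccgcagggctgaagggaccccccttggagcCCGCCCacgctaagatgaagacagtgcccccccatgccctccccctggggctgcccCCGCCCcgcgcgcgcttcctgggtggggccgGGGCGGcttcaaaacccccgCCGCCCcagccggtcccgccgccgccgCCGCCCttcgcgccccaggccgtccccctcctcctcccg
The Ltbp3 window held 1 AP-1 match, a motif found in 5.2% of all 32851 listed promoter windows, and no GC, TATA or CCAAT box. The Tgfb2 window held 1 TATA box and 1 CCAAT box, found in 13.6% and 37.4% of all windows. The Tgfb1 window held 6 GC box matches, and 35.7% of all windows held at least 1. Its GC content was 77%, against 54.3% for Tgfb2, 48% for Ltbp3 and a median of 52.7% over all windows. These matches are descriptions of the letters in the window and not evidence that a factor binds there.

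Among the ligands, Tgfb1, the isoform most tied to immune and fibrotic signalling, was higher in liver. Its deposited intensity was 178, 189.7, 178 and 196 in the 4 hypothalamus arrays and 183, 196, 244 and 227 in the 4 liver arrays. Before normalization the tissues overlapped, with liver replicates 3 and 4 above every hypothalamus array. After normalization the log2 values were 5.21, 5.55, 5.89 and 5.56 in hypothalamus and 6.99, 6.91, 7.43 and 7.33 in liver, with no overlap. The mean was 5.55 ± 0.28 in hypothalamus, against 7.16 ± 0.26 in liver (SD, n = 4 each), a difference of −1.61 (SE 0.17, limma adjusted p = 1.14e-05) or 3.06-fold. The size of this difference depends on the scaling: it was −0.31 in the authors' normalized table (limma adjusted p = 0.0064) and −0.62 without background correction, but −1.77 with cyclic loess. Markers of other cell types moved as well. All 4 measured Kupffer cell and macrophage markers were called higher in liver, with summed intensities of 534 to 657 in hypothalamus and 1408 to 2020 in liver. Marco was called only narrowly (limma adjusted p = 0.045), from intensities of 143.9 to 172.3 in hypothalamus and 135.6 to 168.6 in liver. It was detected on 3 hypothalamus arrays and 2 liver arrays. All 3 tested microglia markers were higher in hypothalamus. Of 3 tested stellate cell markers, 2 were called higher in liver and 1 was not called. The 2 tested T and B cell markers were called higher in liver, and the 1 tested megakaryocyte and platelet marker was not called. The part of any of these cells in the Tgfb1 difference was not tested.

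Tgfb3, an isoform known for its role in palate and lung development, was higher in hypothalamus. Its intensity was 214, 216, 209 and 235 in hypothalamus and 128, 152, 157 and 136 in liver. Every hypothalamus array detected it and 0 liver arrays did, so the liver level is only a bound. The normalized mean was 6.08 ± 0.25 in hypothalamus, against 4.75 ± 0.38 in liver (SD, n = 4 each), and the difference of 1.33 (SE 0.20, limma adjusted p = 0.000148) was called. With the liver values raised to the detection floor of their arrays, the hypothalamus level of Tgfb3 was higher at least 1.11-fold. This is the lowest fold over the 6 scalings, and each "at least" fold given here is such a lowest value. Across the 6 scalings the difference ranged between 0.39 and 1.94, and the highest of these came with each tissue normalized on its own.

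Tgfb2, the isoform that depends most on betaglycan for receptor binding, was also higher in hypothalamus, from signals close to background. Its intensity was 188, 175, 149.8 and 192 in hypothalamus and 125, 142, 156 and 149.8 in liver. The dimmest hypothalamus array, replicate 3, lay below liver replicate 3 before normalization, and that array also had the lowest median of all hypothalamus arrays. The normalized log2 values were 5.41, 5.24, 5.22 and 5.49 in hypothalamus and 4.43, 4.58, 4.97 and 4.66 in liver, with no overlap. The difference was 0.68 (SE 0.13, limma adjusted p = 0.00101). No liver array detected Tgfb2, and no fold is given, because in the joint normalization the liver detection floor lies above the hypothalamus signal. The difference ranged between 0.19 and 1.08 across scalings and was only 0.06 above the median probe in the authors' normalized table.

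**Figure D3:**
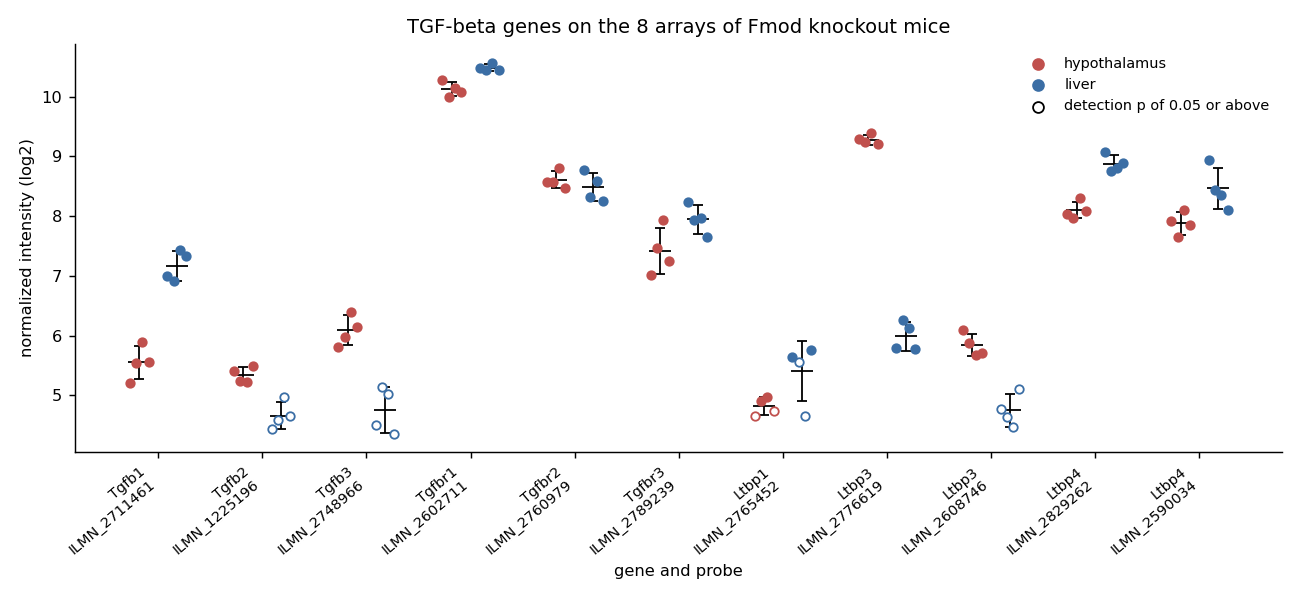
Normalized log2 intensity of the 11 tested probes on each of the 4 hypothalamus (red) and 4 liver (blue) arrays, with mean and SD as black bars and open circles for arrays with a detection p of 0.05 or above. The tissues do not overlap for Tgfb1, Tgfb2, Tgfb3, Tgfbr1, Ltbp3 and Ltbp4, and they overlap for Tgfbr2, Tgfbr3 and Ltbp1. Of all tested probes, 74.4% show no overlap.

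The receptors were measured well above background in both tissues on their brightest probes. Their tissue differences were small after joint normalization, but not in every other scaling. Tgfbr1, the type I receptor kinase, had intensities of 1795, 1447, 1262 and 1547 in hypothalamus and 1067, 1242, 1455 and 1333 in liver on its bright probe ILMN_2602711. These deposited values overlapped and were on average higher in hypothalamus. After joint normalization the order turned: the mean was 10.12 ± 0.12 in hypothalamus, against 10.48 ± 0.06 in liver (SD, n = 4 each), without overlap, a difference of −0.36 (SE 0.10, limma adjusted p = 0.00797) or 1.28-fold higher in liver. The call was lost with median scaling (−0.15, limma adjusted p = 0.326) and in the authors' normalized table (0.0105, limma adjusted p = 0.897). It turned to a call in favour of hypothalamus with each tissue normalized on its own (0.27, limma adjusted p = 0.0269). Relative to the median probe, Tgfbr1 lay between 0.37 and 0.64 lower on the log2 scale in all 6 scalings.

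The other Tgfbr1 probes gave little. ILMN_2708965 and ILMN_1214505 were detected on no array. ILMN_2980532 was detected on 2 liver arrays and on no hypothalamus array, with intensities of 133 to 156 in hypothalamus and 134 to 167 in liver. In a limma fit to all 25697 probes its difference was −0.87 (SE 0.25, limma adjusted p = 0.0166). It was the only probe among the 12 untested that was called in that fit, which called 8.05% of the probes under the detection filter.

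Tgfbr2, the type II receptor that binds the ligand first, was not called. Its intensity was 698, 654, 599 and 641 in hypothalamus and 367, 326, 407 and 327 in liver, so that before normalization the lowest hypothalamus array was brighter than the highest liver array. The normalized values overlapped, with means of 8.61 ± 0.14 in hypothalamus, against 8.48 ± 0.24 in liver (SD, n = 4 each). The difference was 0.12 (SE 0.14, limma adjusted p = 0.439), with a 95% interval between −0.19 and 0.44. Tgfbr2 was called higher in hypothalamus with median scaling (0.78, limma adjusted p = 0.000359), in the authors' normalized table (0.63, limma adjusted p = 6.39e-05) and with separate normalization (1.19, limma adjusted p = 1.71e-05). Its distance from the median probe was smaller, between 0.05 and 0.29 over the 6 scalings. With a stricter detection filter or with some single arrays dropped, it fell slightly below that median. Its other probe, ILMN_1242086, was detected on no array.

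Tgfbr3, the co-receptor betaglycan, was called higher in liver by a narrow margin. Its intensity was 335, 378, 387 and 358 in hypothalamus and 284, 274, 302 and 254 in liver, higher on every hypothalamus array before normalization. The normalized values were 7.02, 7.47, 7.93 and 7.24 in hypothalamus and 8.24, 7.93, 7.97 and 7.65 in liver. Hypothalamus replicate 3 reached into the liver range. The difference was −0.53 (SE 0.20, limma adjusted p = 0.0338) or 1.44-fold. It was no longer called without hypothalamus replicate 1 (−0.40), 2 (−0.55) or 4 (−0.48), or without liver replicate 1 (−0.43), 2 (−0.53) or 3 (−0.52), where the limma adjusted p lay between 0.0556 and 0.0901. With each tissue normalized on its own it was called higher in hypothalamus (0.65, limma adjusted p = 0.00995). The dimmer Tgfbr3 probe ILMN_2606601 pointed the other way, with a difference of 0.46 (SE 0.18), but it was detected on only 2 hypothalamus arrays and was not called in the fit to all probes (limma adjusted p = 0.0671).

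Ltbp3, which tethers latent TGF-beta of every isoform and is known from skeletal and dental defects when lost, showed the widest tissue difference of the 9 tested genes and was higher in hypothalamus. Probe ILMN_2776619 had intensities of 1036, 929, 826 and 951 in hypothalamus and 149, 171, 177 and 167 in liver, far apart before any normalization. The normalized mean was 9.28 ± 0.08 in hypothalamus, against 5.99 ± 0.24 in liver (SD, n = 4 each). The difference was 3.29 (SE 0.13, limma adjusted p = 5.3e-09) or 9.79-fold. Of all tested probes, 14.7% had a larger absolute difference. All 4 liver arrays detected this probe, with detection p between 0.01 and 0.0388. Across the scalings the difference ranged between 1.94 without background correction and 4.35 with separate normalization.

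The second Ltbp3 probe, ILMN_2608746, was dimmer, and its direction was all but fixed by the detection filter. It had intensities of 236, 209.8, 168 and 205 in hypothalamus and 135, 144, 143 and 158 in liver, without overlap, and it was detected on no liver array. The difference was 1.10 (SE 0.16, limma adjusted p = 0.000102), and with the liver at its floor it was at least 1.05-fold higher in hypothalamus. Markers of neurons, astrocytes, oligodendrocytes and microglia were all higher in hypothalamus wherever they were tested, and their part in the Ltbp3 difference was not tested.

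Ltbp4, which binds latent TGF-beta 1 and takes part in elastic fibre assembly, was read by a pair of bright probes. ILMN_2829262 had intensities of 533, 481, 464 and 529 in hypothalamus and 426, 407, 462 and 456 in liver. ILMN_2590034 had intensities of 505, 410.5, 419 and 468 in hypothalamus and 401, 346, 362 and 308 in liver. On both probes every hypothalamus array was brighter than every liver array before normalization. After joint normalization the order was the opposite for both, again without overlap. The means of ILMN_2829262 were 8.10 ± 0.14 in hypothalamus, against 8.88 ± 0.14 in liver (SD, n = 4 each), a difference of −0.78 (SE 0.12, limma adjusted p = 0.00014) or 1.71-fold. For ILMN_2590034 the difference was −0.58 (SE 0.18, limma adjusted p = 0.0134). In the values normalized by the authors these differences were −0.0366 and 0.11, and with separate normalization 0.27 and 0.53, the last of them called higher in hypothalamus (limma adjusted p = 0.0233). Relative to the median probe, ILMN_2829262 lay between 0.42 and 0.85 lower and ILMN_2590034 between 0.27 and 0.66 lower. The third Ltbp4 probe, ILMN_2708681, was detected on 1 array of each tissue and not tested.

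Ltbp1, which anchors latent TGF-beta to fibrillin and fibronectin, was read by 6 probes, all at or near background. ILMN_2765452 had intensities of 154, 162, 142 and 159 in hypothalamus and 146, 158, 149.9 and 167 in liver. It was detected on 2 arrays of each tissue, with detection p between 0.0376 and 0.0451 there. The difference was −0.58 (SE 0.23, limma adjusted p = 0.037), with liver replicate 3 at the level of the lowest hypothalamus array. After joint normalization the detection floor lay between 4.86 and 4.92 in hypothalamus arrays and between 5.50 and 5.69 in liver arrays. A probe at this limit in both tissues therefore reads higher in liver. The part of this offset in the Ltbp1 difference was not tested. The call was lost without hypothalamus replicate 1 (−0.49), 2 (−0.57) or 4 (−0.52), without liver replicate 1 (−0.53), 2 (−0.56) or 4 (−0.49), without background correction (−0.15) and in the authors' normalized table (0.0827). Of its other probes, ILMN_1221564 was detected on 1 hypothalamus array and the remaining 4 on no array. Ltbp2, a relative that binds fibrillin but not latent TGF-beta, had a single probe with intensities of 125 to 159.8 in hypothalamus and 136 to 159 in liver, and it was detected on no array. A level of Ltbp1 or Ltbp2 below the detection limit of these arrays can thus not be told from absence.

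**Figure D4:**
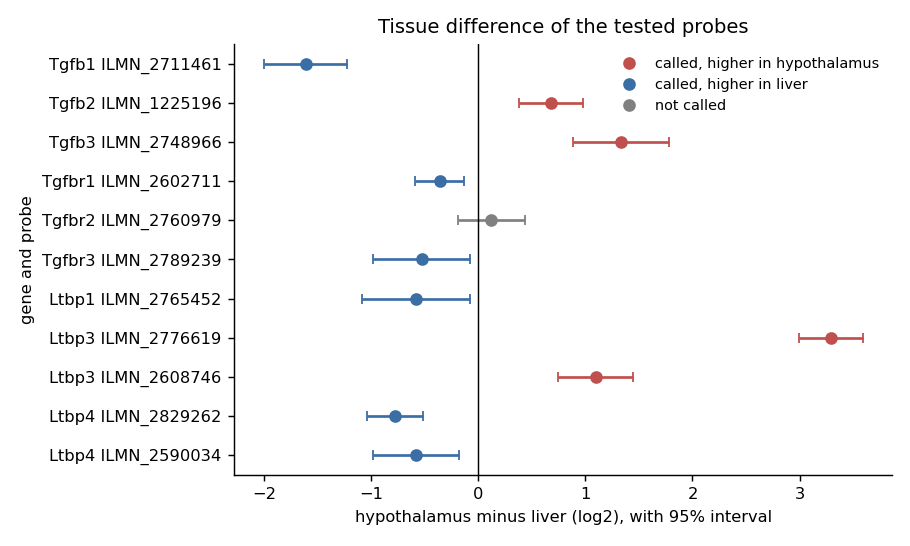
Difference between hypothalamus and liver (log2 after joint normalization) of the 11 tested probes, as points with 95% intervals. Ltbp3 probe ILMN_2776619 stands at 3.29 and Tgfb1 at −1.61, and the interval of Tgfbr2 crosses 0.

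Over all tested probes the median SD among arrays of a tissue was 0.17 in hypothalamus, against 0.22 in liver. Of the 11 tested probes of these genes, 5 had an SD above that median in hypothalamus, against 9 in liver. Among these 9 were Tgfb2, Tgfb3 and Ltbp3 probe ILMN_2608746, detected on no liver array, and Ltbp1, detected on 2. Their SD in liver is that of readings at or near background. Tgfbr3 varied most in hypothalamus, with an SD of 0.39 that 6.16% of tested probes exceeded, and Ltbp1 varied most in liver, with an SD of 0.50 that 11.8% exceeded. Tgfbr1 was the steadiest in liver: its SD was 0.06, and 95.7% of tested probes varied more. The genes with profiles nearest to Ltbp3 over the 8 arrays, by the root mean square difference of centred log2 values, were Sars (0.11), Cyria (0.13) and Efs (0.13). Those nearest to Tgfb1 were Marchf5 (0.12), Acer2 (0.12) and Cox7b (0.13). Likeness over 8 arrays in 2 tissues mostly reflects an equal tissue difference.

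Of 18 listed genes that activate or hold the latent complex 11 were tested, 1 of them higher in hypothalamus and 8 in liver, with a median difference of −1.42 on the log2 scale. Over all tested genes 43.1% were higher in hypothalamus, against 37.3% in liver, with a median of 0.11. The list counts from the joint normalization stand against these shares. Counts from other scalings stand against a shifted background. Of all called probes, 65.6% were higher in hypothalamus with median scaling and 71.4% in the authors' normalized table, against 52.5% in the joint normalization. Plasminogen (Plg), a protease precursor made by hepatocytes, was at least 86.2-fold higher in liver and detected on no hypothalamus array. Furin, the protease that cuts the TGF-beta precursor, was 9.62-fold higher in liver (difference −3.27, SE 0.11, limma adjusted p = 1.62e-09). Tgm2, a transglutaminase that crosslinks latent complexes to the matrix, was 9.06-fold higher in liver, and the thrombospondin gene Thbs2 was 1.69-fold higher in hypothalamus. Of 13 accessory receptors and ligand-binding matrix genes 9 were tested, 1 higher in hypothalamus, against 8 in liver (median −1.33). The plasma protein gene Ahsg was at least 202.8-fold, the co-receptor endoglin (Eng) 6.53-fold and decorin (Dcn), a small proteoglycan that binds TGF-beta, 5.73-fold higher in liver. Cd109, a co-receptor, was higher in hypothalamus (difference 0.74). No fold is given for it, because in the joint normalization the liver detection floor lies above the hypothalamus signal. Plg and Ahsg were detected on no hypothalamus array and Cd109 on no liver array, so the detection filter all but fixed their direction.

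Genes of the signal inside the cell differed little or in both directions. Of 5 tested SMAD genes, 1 was higher in hypothalamus, 1 in liver and 3 were not called (median 0.11). With median scaling and in the authors' normalized table, 4 of the 5 were higher in hypothalamus. Smad2, a direct substrate of Tgfbr1, was 1.38-fold higher in hypothalamus. Smad4, the common partner, was 1.30-fold higher in liver, a direction that turned, uncalled, with separate normalization (0.18, limma adjusted p = 0.141). Among 9 tested SMAD inhibitors and co-repressors, 3 were higher in hypothalamus, against 4 in liver (median −0.05), and 3 against 2 in the authors' normalized table. The inhibitory SMAD gene Smad6 was at least 1.21-fold, the co-repressor Tgif1 at least 1.06-fold and the ubiquitin ligase Smurf1 at least 1.10-fold higher in liver. Smad6 was detected on 3, Smurf1 on 2 and Tgif1 on 0 of the 4 hypothalamus arrays, and Smurf1 was not called in the authors' normalized table (−0.15). For Tgif1 the detection filter had thus all but fixed the direction. Fkbp1a, which encodes a protein that binds and restrains the type I receptor, was 3.97-fold higher in hypothalamus.

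Known TGF-beta target genes went both ways, with 5 of 14 tested genes higher in hypothalamus, against 7 in liver (median −0.68). The balance turned with the scaling, to 5 against 4 with median scaling and 5 against 2 in the authors' normalized table. Tgfbi was 8.78-fold higher in liver (−3.13, SE 0.21, limma adjusted p = 2.91e-07), and the helix-loop-helix gene Id2 3.06-fold. The matricellular gene Ccn1 was higher in liver by a difference of −1.27. No hypothalamus array detected it, so the detection filter all but fixed its direction. Sparc, a matrix glycoprotein gene that is strongly expressed by astrocytes and vessels in brain, was 30.1-fold higher in hypothalamus (4.91, SE 0.16, limma adjusted p = 1.14e-09). Id2 lost its call with separate normalization (−0.46) and Ccn1 in the authors' normalized table (−0.12).

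Of 13 tested genes for other ligands of the superfamily, 2 were higher in hypothalamus, against 8 in liver (median −0.98). With median scaling these counts were 4 against 5, and in the authors' normalized table the balance turned to 6 against 4. The activin subunit genes Inhbc and Inhbe, known as liver products, were at least 12.0-fold and 6.62-fold higher in liver, and Bmp1, which encodes a matrix protease and not a growth factor, was 9.05-fold higher there. The inhibin gene Inha was at least 1.12-fold higher in hypothalamus. No liver array detected Inha and no hypothalamus array detected Inhbc, so the detection filter all but fixed the direction of both. Other receptors and co-receptors of the superfamily numbered 7 tested, of which 4 were higher in hypothalamus, against 2 in liver (median 1.83). Rgma, a co-receptor for bone morphogenetic proteins, was at least 1.83-fold, Bmpr1b at least 1.70-fold and the activin receptor Acvr2b 3.81-fold higher in hypothalamus. Rgma and Bmpr1b were detected on no liver array, so the filter all but fixed their direction. Amhr2 was 1.70-fold higher in liver, a direction that turned, uncalled, in the authors' normalized table (0.10) and with separate normalization (0.35).

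Genes of the microfibrils and elastic fibres to which latent complexes are tethered were tested in 7 of 15, with 3 higher in hypothalamus, against 2 in liver (median −0.04). Mfap2, a microfibril protein gene, was at least 1.39-fold and Fbln1 3.59-fold higher in hypothalamus. Elastin (Eln) was higher in hypothalamus by 0.68 and not called with cyclic loess (0.36, limma adjusted p = 0.0626). No liver array detected Mfap2 or Eln, so the detection filter all but fixed their direction. For Eln no fold is given, because in the joint normalization the liver detection floor lies above the hypothalamus signal. Adamtsl2 was called higher in liver (difference −0.94), but not with separate normalization (−0.08) or in the authors' normalized table (0.0059). Deposited intensities of markers of mural cells and fibroblasts, cells known to make such matrix, summed to 4542 to 5107 in hypothalamus and 4950 to 6137 in liver. That sum mixed opposite directions. Acta2 read 2389 to 3398 in hypothalamus and 178.5 to 938.5 in liver, while Dcn read 872.6 to 1319 in hypothalamus and 3419 to 5129 in liver. Endothelial markers summed to 869 to 1020 in hypothalamus and 833 to 956 in liver before normalization. After joint normalization 2 of 3 tested endothelial markers were called higher in liver and 1 was not called (median −0.68). The part of these cells in the matrix gene differences was not tested.

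**Figure D5:**
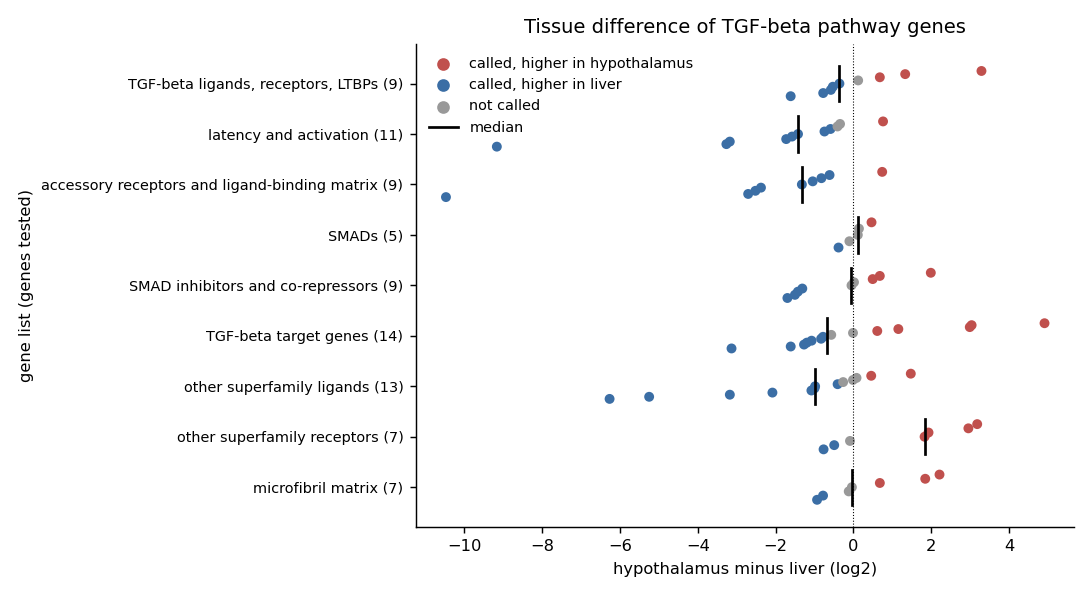
Difference between hypothalamus and liver (log2 after joint normalization) of each tested gene in the TGF-beta lists, coloured by call, with the list median as a black bar. The medians run between −1.42 for latency and activation genes and 1.83 for other receptors of the superfamily, and the 9 TGF-beta ligand, receptor and binding protein genes have a median of −0.36.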

How the data were processed

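The deposited table of the authors holds 1 intensity per probe and array on a linear scale, not normalized between arrays, with a detection p-value beside each. A second deposited table gives the authors' normalized intensity, by a method not given in the sources used here. The submitters' processing notes name R 2.15.0 and lumi 2.10.0 without saying what each did. Columns of other samples numbered 0.

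The intensities were processed with limma 3.58.1 in R 4.3.3: neqc (normexp background correction with negative controls inferred from the detection p-values, offset 16, quantile normalization of all 8 arrays, log2). Quantile normalization gives both tissues the same distribution, so differences stand against the bulk of probes. Probes with a detection p under 0.05 on at least 4 arrays (13498 of 25697) were fitted with lmFit and eBayes, tissue alone in the model, by a two-sided test adjusted over all tested probes (Benjamini-Hochberg, threshold 0.05). The fit was tested on simulated data. Differences are hypothalamus minus liver. "At least" folds raise values of the dimmer tissue to the lowest signal among detected probes of each array, and are used where any array of that tissue did not detect the probe. The lowest over 6 scalings is given, and none where that is 1.00 or less. They leave out the spread between arrays.

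Symbols were taken from the platform annotation (23978 probes with 1 symbol, 0 with several, 1719 with none), updated through the RefSeq gene table of GRCm38.p6, in which 23962 gene IDs were found. Promoter windows came from RefSeq (GRCm38.p6) and were found for 8 of the 10 genes. The number of arrays limits the precision. Members, lists and tests were chosen with earlier results of these data known. List genes were named by size, at most 3 on the side with more calls and 1 on the other side. Alternatives were other scalings, background handling, filters, spread estimates, the replicate number as a block and leaving out each array.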

Additional observations from a re-analysis of the deposited data

Results flagged for a closer look

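Of 82 groups of 4 arrays checked (the 11 tested probes and the named list genes in each tissue), 4 held an array far from the other arrays, which is about what chance gives (1 in 20). None belonged to a TGF-beta ligand, receptor or latent binding protein gene. Smad2 in liver had replicate 1 low at 7.59, against 7.87 to 7.92 in the other liver arrays (gap over range 0.85). Tgfbi in liver had replicate 4 low at 9.46, against 10.12 to 10.22 (gap over range 0.873). Ccn1 in hypothalamus had replicate 2 high at 4.81, against 4.52 to 4.56 (gap over range 0.868), and no hypothalamus array detected it. Rgma in liver had replicate 2 high at 4.56, against 4.42 to 4.44 (gap over range 0.83), and no liver array detected it.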

How the results depend on the processing

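Tgfb1, Tgfb2, Tgfb3 and both Ltbp3 probes kept their direction and call under every alternative in which they were tested (16 to 18 each), although their sizes moved. The detection filter had all but fixed the direction of Tgfb2, Tgfb3 and ILMN_2608746 in the alternatives that used it. With median scaling, 2 of the genes were higher in liver, Tgfbr3 (0.24) and Ltbp4 probe ILMN_2590034 (0.11) changed sign, Tgfbr1 (−0.15) and Ltbp4 probe ILMN_2829262 (−0.14) were no longer called, and Tgfbr2 was called (0.78). In the authors' normalized table, a count of 1 gene was higher in liver, Tgfbr1 (0.0105), Tgfbr3 (0.18), Ltbp1 (0.0827) and ILMN_2590034 (0.11) changed sign, ILMN_2829262 (−0.0366) was not called and Tgfbr2 (0.63) was. With each tissue normalized on its own 6 genes were higher in hypothalamus, against 1 in liver, Tgfbr1 (0.27), Tgfbr3 (0.65) and Ltbp4 (0.27 and 0.53) changed sign, Ltbp1 (−0.0221) was not called and Tgfbr2 (1.19) was. Those scalings move the bulk of probes, as the medians of all tested probes show. Without background correction Ltbp1 was not called (−0.15).

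Without a filter, Tgfbr3 (−0.53) and Ltbp1 (−0.58) were not called and 3 genes were higher in liver, with more probes sharing the adjustment. With detection required on all 8 arrays, 6450 of 7992 tested probes were called, 41.4% of the called ones higher in hypothalamus. Of the 6 genes still tested, 1 was higher in hypothalamus, against 4 in liver. The test beyond 2-fold called 1 gene in each direction. With the replicate number as a block the difference of Ltbp1 was −0.58 and no longer called (limma adjusted p = 0.0521), and 10750 probes were called. Same-numbered arrays of both tissues correlated at 0.0302 to 0.116 in their deviations from the tissue means, so the numbers were not taken to pair the samples, but every array correlated best with its own number in the other tissue, a hint from the data and not from the design. The block changed no other call among these genes. Leaving out 1 array gave 10378 to 10720 called probes and 3 to 5 genes higher in liver, with Tgfbr3 between −0.70 and −0.40 and Ltbp1 between −0.87 and −0.49.

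Of 80 list counts, 61 stayed within 1.5 times. These came from no background correction, median scaling, cyclic loess, the authors' normalized table and no filter. List counts were not made with each tissue normalized on its own, where 75.9% of all called probes were higher in hypothalamus. The share of all called probes higher in hypothalamus also moved, from 52.5% in the joint normalization to 65.6% with median scaling and 71.4% in the authors' normalized table. For SMAD genes the counts were 4 higher in hypothalamus, against 0 in liver, with median scaling and in the authors' normalized table. With median scaling 4 other ligands were higher in hypothalamus, against 5 in liver, and counts higher in liver were 4 for target genes, 0 for other receptors and 1 for microfibril genes. In the authors' normalized table, counts higher in hypothalamus were 2 for latency genes, 6 for other ligands and 5 for microfibril genes, and counts higher in liver were 2 for inhibitors, 2 for target genes, 4 for other ligands, 0 for other receptors and 0 for microfibril genes. With cyclic loess and without background correction 1 other ligand was higher in hypothalamus. Signal over background limits Tgfb2, Tgfb3, Ltbp1 and Ltbp2.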

Other observations

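In the RefSeq table of GRCm38.p6, Tgfb1 and Ltbp4 lie on chromosome 7 with 29 protein-coding genes between them, and Tgfb3 and Ltbp2 lie on chromosome 12 with 19 between them. Tgfb1 and Ltbp4 were both called higher in liver after joint normalization, while Ltbp4 was not in the authors' normalized table (−0.0366 and 0.11 for its bright probes). Of the 12 promoter windows listed for 8 of the 10 genes, 6 held a GC box, against 35.7% of all windows. These 6 belonged to 4 genes, and overlapping Ltbp4 windows were counted separately. The Ltbp4 windows reached a GC content of 81.3%, which 0.588% of all windows exceeded. An Ltbp1 window held the cAMP response element TGACGTCA, found in 1.79% of all windows. None of the windows of these genes held the SMAD element GTCTAGAC, found in 0.213% of all windows, which says only that these letters are not in these stretches.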
